A study of Homo sapiens with 4 samples.

Results

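The 10 genes described here are FOS, FOSB, FOSL1, FOSL2, JUN, JUNB, JUND, EGR1, IER2 and KLF6, the subunits of activator protein-1 (AP-1) and a set of immediate early genes expressed with them. They were taken from a list of gene names, each Entrez gene number being matched to its symbol. They are 10 of the 19801 genes listed for every library. Of these genes, 14626 reached an RPKM (reads per kilobase of exon, scaled to the mapped reads of the library) of at least 1 in at least 1 library. All 10 genes are counted below, although FOSB and FOSL1 stayed under 1 RPKM in every library, and FOS and EGR1 reached 1 RPKM only in the libraries with AIL.

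RNA was sequenced from LNCaP cells, an androgen-responsive human prostate cancer line, grown in RPMI 1640 medium with 10% fetal bovine serum in every condition. The cells were transiently transfected for 24 h with empty vector or with the plasmid AR1-651, and were kept with or without AIL for the following 12 h. AIL is ailanthone, a natural compound from the tree Ailanthus altissima. This gave 4 groups, called empty vector and AR1-651 and, when AIL was added, empty vector + AIL and AR1-651 + AIL, with 1 library each. Wherever 4 values are given without further labels, they belong to empty vector without and then with AIL, followed by AR1-651 without and then with AIL. The AIL dose used for sequencing and any solvent given to the other cells are not given in the sources used here. With 1 library per group there was no replicate error, no test was made, and each difference below is between 2 libraries and not between conditions.

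AP-1 is a dimer of basic leucine zipper proteins. JUN proteins pair with each other or with FOS proteins, whereas FOS proteins bind DNA only as partners of JUN or of related factors, and the dimers recognise short sites such as TGACTCA and TGACGTCA. Immediate early genes are switched on by growth factors and stress without new protein synthesis, and many of their mRNAs are short-lived, partly through AU-rich elements in the 3′ untranslated region (UTR). EGR1 and KLF6 are zinc finger transcription factors and IER2 is a nuclear immediate early protein.

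Much of the known control of such genes lies in short sites close to the start, and the 250 bases before the start are therefore shown for 5 of them. JUN, FOS and KLF6 are shown since they had the largest differences with AIL, JUND since it was the most abundant AP-1 gene without AIL, and EGR1 since its level was low. The sequences are those of RefSeq on GRCh38.p14, each written on the strand of its gene. Capitals mark the letters TGACATCA, TGACGTCA, TGACGT or a CArG box (CC, 6 letters that are A or T, GG), the site of serum response factor (SRF), found on either strand.
JUN, chr1:58784048-58784297, minus strand: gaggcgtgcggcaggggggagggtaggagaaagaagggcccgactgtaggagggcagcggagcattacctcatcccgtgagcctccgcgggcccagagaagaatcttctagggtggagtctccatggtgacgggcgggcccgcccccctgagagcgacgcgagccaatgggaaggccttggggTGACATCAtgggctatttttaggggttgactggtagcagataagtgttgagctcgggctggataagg
FOS, chr14:75278578-75278827, plus strand: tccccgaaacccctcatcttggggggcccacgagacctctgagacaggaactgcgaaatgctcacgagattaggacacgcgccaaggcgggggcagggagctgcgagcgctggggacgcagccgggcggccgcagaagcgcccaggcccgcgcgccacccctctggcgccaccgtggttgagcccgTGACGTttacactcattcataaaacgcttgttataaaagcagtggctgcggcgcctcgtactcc
KLF6, chr10:3785210-3785459, minus strand: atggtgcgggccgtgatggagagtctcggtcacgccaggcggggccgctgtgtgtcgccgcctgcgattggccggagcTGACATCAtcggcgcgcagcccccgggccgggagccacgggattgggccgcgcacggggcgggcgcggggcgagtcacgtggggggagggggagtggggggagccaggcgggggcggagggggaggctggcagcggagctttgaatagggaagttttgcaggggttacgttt
JUND, chr19:18281623-18281872, minus strand: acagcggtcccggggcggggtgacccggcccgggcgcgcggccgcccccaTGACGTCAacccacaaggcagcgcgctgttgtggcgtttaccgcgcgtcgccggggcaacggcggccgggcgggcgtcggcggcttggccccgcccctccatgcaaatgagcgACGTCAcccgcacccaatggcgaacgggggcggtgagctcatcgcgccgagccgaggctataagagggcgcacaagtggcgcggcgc
EGR1, chr5:138465229-138465478, plus strand: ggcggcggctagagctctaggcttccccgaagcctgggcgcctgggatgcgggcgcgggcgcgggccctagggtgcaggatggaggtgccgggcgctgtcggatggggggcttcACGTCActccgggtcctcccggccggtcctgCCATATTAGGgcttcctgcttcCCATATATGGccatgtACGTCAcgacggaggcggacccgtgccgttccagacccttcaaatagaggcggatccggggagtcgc
A promoter entry was found for 9 of the 10 genes, all but FOSL1. TGACATCA lay 67 bases before the start of JUN and 172 bases before that of KLF6, and in 2.37% of 35116 promoters of the same length. TGACGT was present in 5 of the 9, FOS, FOSB, FOSL2, JUND and EGR1, against 7.1% of all promoters. In FOS, FOSB, FOSL2 and EGR1 a copy began 60 to 67 bases before the start. The full TGACGTCA, which contains TGACGT on both strands, was found in JUND alone, 200 bases before the start, and in 1.65% of all promoters. The 2 CArG boxes of EGR1 lay 105 and 83 bases before its start, and 1.16% of all promoters held such a box. TGACTCA occurred in none of the 9 and in 4.2% of all promoters. These matches are of letters only, and no binding was measured. The motifs were chosen after the sequences were seen, and the 35116 promoters were not matched for GC content. The shares are therefore descriptions and do not test for an excess among the 9.

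The transcripts also differed in structure. JUN, JUNB and JUND each have a single exon, as do 6.12% of the 14005 genes above the filter with an annotated transcript. A pentamer ATTTA, the core of AU-rich elements, occurred in the 3′ UTR of 9 of the 10 genes, from 9 copies in FOSL2, 6 in KLF6 and 5 in FOS to 1 copy in FOSL1, JUND and EGR1, with none in IER2. At least 3 copies were present in 5 members and in 43% of 12177 genes with a 3′ UTR. The longer form TTATTTATT was present in FOS and FOSL2 and in 8.64% of those genes. The richest 30 bases of the 3′ UTRs of FOS, KLF6 and FOSL2 are shown with ATTTA in capitals.
FOS: aaacgttttattgtgtttttaATTTATTTA
KLF6: gtgtATTTAcaaatataacacaacaATTTA
FOSL2: agaagaaattgacATTTAttttattATTTA
ATTTA did not sort the genes by their difference with AIL alike in both backgrounds. With empty vector, 8.69% of genes with at least 3 copies and 10.7% of genes with none were raised at least 2-fold. With AR1-651 these shares were 22.7% and 8.74%. The median GC content of the 2 sets was 42.8% and 58.1%, and their median 3′ UTR length was 2509 and 349 bases. Whether GC content or length has a part in these shares was not tested.

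As a check of the cells, all 9 luminal prostate markers were above 1 RPKM in every library, summing to 1617.3 to 3835.86 RPKM. KRT14, the only basal marker in the files, was at 0 to 0.21 RPKM. The 5 fibroblast markers summed to 2.46 to 5.52 RPKM, and the 2 leukocyte markers in the files to 8.67 to 12.69 RPKM. Of these 2, only CD68 reached 1 RPKM, at 8.31 to 12.2 RPKM. KLK3, which encodes prostate-specific antigen, stood at 286.61, 302.56, 1442.16 and 581.52 RPKM. The expression of the construct itself was not analysed here, and libraries are therefore named by their labels. From the steps between the lowest RPKM values, the depths were estimated at 4760000 to 5670000 reads per library, and 95% intervals given below cover counting error only. RPKM is a share of each library's RNA, and in bulk RNA fewer cells of a type and less RNA per cell cannot be told apart.

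The AP-1 and immediate early genes were mostly higher with AIL, in both backgrounds. A gene is called raised or lowered when its log2(RPKM + 1) differed by at least 2-fold between the libraries. With empty vector, 5 of the 10 members, JUN, FOS, KLF6, IER2 and JUND, were raised with AIL and none was lowered, while 9.53% of the 14626 genes were raised and 9.03% were lowered. In the libraries labelled AR1-651, 4 members, JUN, FOS, KLF6 and IER2, were raised with AIL and none was lowered, while 14.9% of genes were raised and 5.74% were lowered. The median log2 difference over all 10 was 1.04 with empty vector and 0.96 with AR1-651, and that over the 14626 genes was -0.02 and 0.13. These AIL comparisons share no library. The 4 genes raised in both stand beside 830 of the 14626 genes, or 5.67%, that were raised in both.

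**Figure D1:**
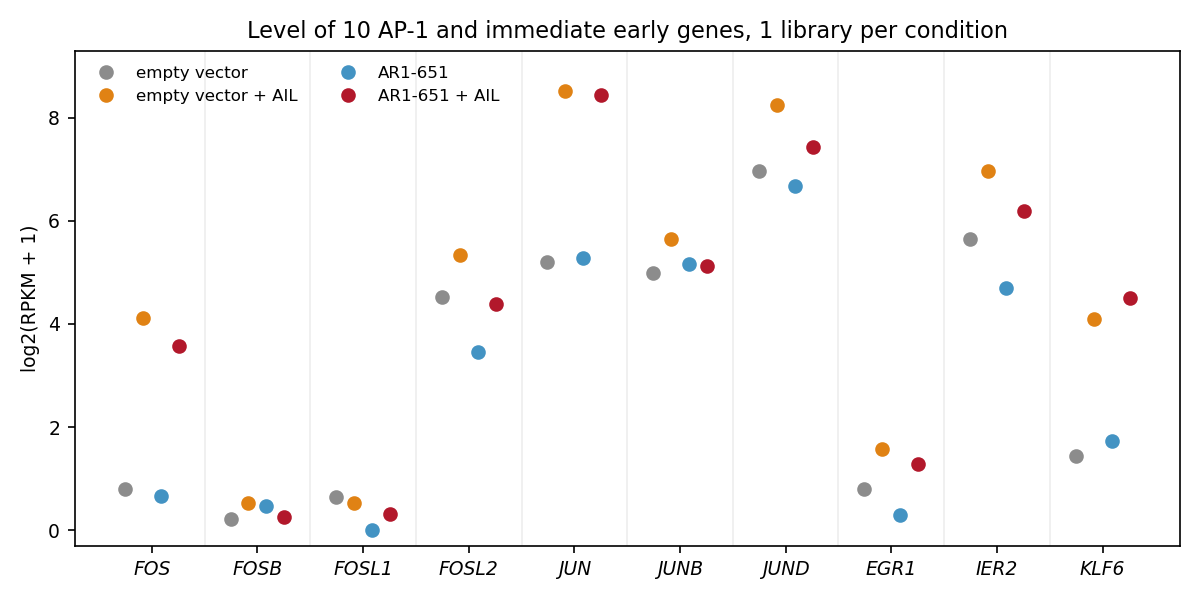
Levels of the 10 genes in the 4 libraries, as log2(RPKM + 1) on the vertical axis, with 1 coloured point per library (grey and blue without AIL, orange and red with it). JUN, FOS and KLF6 show the widest gaps between the points with and without AIL, and FOSB, FOSL1 and EGR1 lie near the bottom of the axis in every library.

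Among the JUN genes, JUN itself, the founding member and a strong activator, differed most with AIL. It stood at 35.65 RPKM (empty vector) and 37.97 RPKM (AR1-651) without AIL and at 367.1 and 346.04 RPKM with it. Both libraries with AIL were far above both without it, whichever plasmid the cells received. The RPKM ratio was 10.3 (95% counting interval 9.49 to 11.2) with empty vector and 9.11 (8.44 to 9.84) with AR1-651, or log2 differences of 3.33 and 3.15. A larger log2 difference was seen for 24 and 26 of the 14626 genes. JUN moved from percentile 82.7 and 84.2 of the genes above the filter to percentile 98.8 and 98.7 with AIL.

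JUND, a subunit that most cells hold at a steady level, measured 123.89 RPKM with empty vector and 101.85 with AR1-651, against 303.73 and 171.78 once AIL was added. It was higher in both libraries with AIL, but the gap was wider with empty vector, at 2.45 (2.29 to 2.63) against 1.69 (1.56 to 1.82) in RPKM. The log2 difference of 1.29 was called raised, and that of 0.75 was not. The AIL difference in AR1-651 minus that in empty vector was -0.54, and it ranged from -0.75 to -0.26 over the alternative settings.

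JUNB, which activates less strongly than JUN and can oppose it, stood at 30.57 RPKM (empty vector) and 35.01 RPKM (AR1-651) without AIL and at 49.04 and 34.02 RPKM with it. Only the empty vector + AIL library stood apart. The RPKM ratio with AIL was 1.6 (1.38 to 1.87) with empty vector and 0.972 (0.836 to 1.13) with AR1-651, so that the latter interval includes no difference. On the log2 scale these were 0.66 and -0.04, and the latter was 0.15 with equal RPKM sums and 0.10 with the length and GC trend removed. HOOK2 overlaps JUNB on the opposite strand, and since the strand setting of the counting is not given in the sources used here, reads of the pair may be mixed.

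The FOS genes spanned a wide range of levels. FOS, the founding member and an unstable partner of JUN, measured 0.73 RPKM with empty vector and 0.59 with AR1-651, against 16.24 and 10.95 once AIL was added. These correspond to about 8, 167, 7 and 134 reads. Both libraries with AIL were far above both without it. The RPKM ratio was 22.2 (11 to 52.4) with empty vector and 18.6 (8.74 to 46.9) with AR1-651, the largest ratios of the 10 genes, with wide intervals because of the few reads without AIL. The log2 differences were 3.32 and 2.91, and with a pseudocount of 0.1 in place of 1 they were 4.30 and 4.0.

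FOSL2, also called FRA-2, stood at 22.15 RPKM (empty vector) and 10.0 RPKM (AR1-651) without AIL and at 39.19 and 20.03 RPKM with it. Its RPKM was 1.77 (1.62 to 1.94) times higher with AIL in empty vector and 2 (1.76 to 2.27) times higher in AR1-651. On the log2(RPKM + 1) scale these were 0.80 and 0.93, both under the 2-fold threshold. FOSL2 was therefore higher in the library with AIL for each plasmid without being called raised, but it passed 2-fold at 1.07 in empty vector with the length and GC trend removed and at 1.11 in AR1-651 with equal RPKM sums.

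FOSB and FOSL1, the latter also called FRA-1, were close to the limit of detection. FOSB measured 0.16, 0.44, 0.39 and 0.19 RPKM, or about 3, 8, 8 and 4 reads. FOSL1 measured 0.56, 0.44, 0 and 0.25 RPKM, or about 5, 4, 0 and 3 reads, and the count of 0 allows up to 0.298 RPKM, taken as 3 reads. Their counting intervals with and without AIL overlapped for each plasmid, and no difference was detectable at this depth.

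Of the other immediate early genes among the 10, KLF6, a zinc finger factor known as a tumour suppressor in prostate, measured 1.71 RPKM with empty vector and 2.33 with AR1-651, against 16.07 and 21.8 once AIL was added. Its libraries with AIL did not overlap those without it. The RPKM ratio was 9.4 (6.84 to 13.5) with empty vector and 9.36 (7.1 to 12.3) with AR1-651, or log2 differences of 2.66 and 2.78. Larger log2 differences were seen for 74 and 47 of the 14626 genes.

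IER2 stood at 49.08 RPKM (empty vector) and 24.93 RPKM (AR1-651) without AIL and at 124.28 and 71.72 RPKM with it. It was raised with AIL for both plasmids, by RPKM ratios of 2.53 (2.28 to 2.81) and 2.88 (2.51 to 3.3), or 1.32 and 1.49 on the log2 scale. An antisense transcript, AC011446.2, overlaps IER2, and its reads could have been counted with it.

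EGR1, which binds GC-rich sites and answers to SRF, measured 0.75 RPKM with empty vector and 0.23 with AR1-651, against 1.97 and 1.44 once AIL was added. The estimated reads were 12, 29, 4 and 26. Its RPKM ratio with AIL was 2.63 (1.27 to 5.54) with empty vector and 6.26 (2.18 to 24.8) with AR1-651, both above 1 in counting error. The log2(RPKM + 1) differences of 0.76 and 0.99 fell short of 2-fold, and the +1 understates differences at so low a level. With a pseudocount of 0.1 they were 1.28 and 2.22, both past 2-fold, and with equal RPKM sums the latter was 1.02, and 1.03 with the length and GC trend removed.

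**Figure D2:**
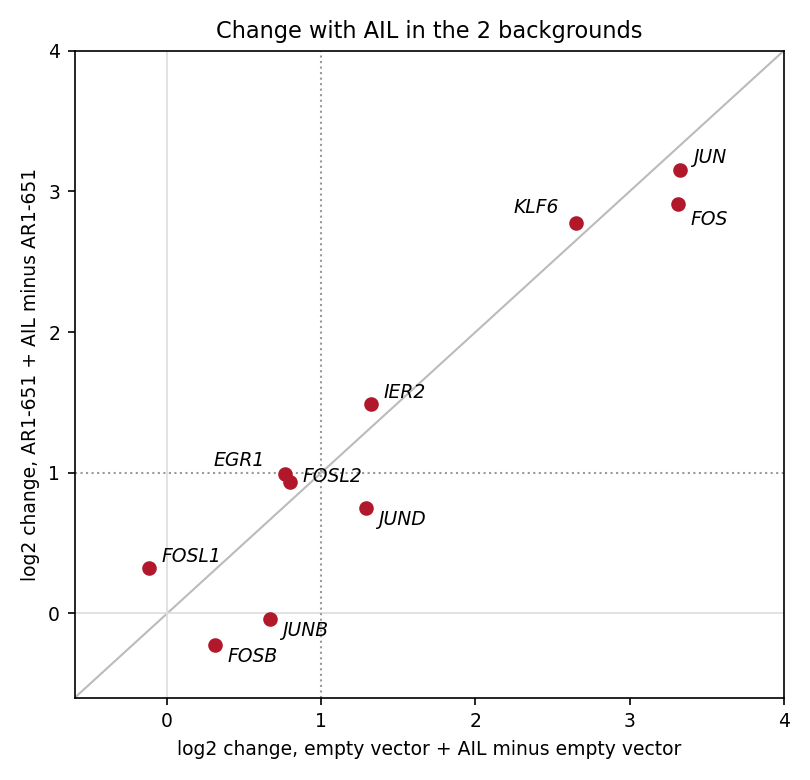
Log2 difference of RPKM + 1 with AIL in the empty vector libraries on the horizontal axis and in the AR1-651 libraries on the vertical axis, with 1 point per gene of the 10 a diagonal for equal values and dotted lines at 2-fold. JUN, FOS and KLF6 lie at 2.66 to 3.33 on both axes, and JUNB, JUND, FOSB, FOS and JUN lie below the line of equal values.

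**Figure D3:**
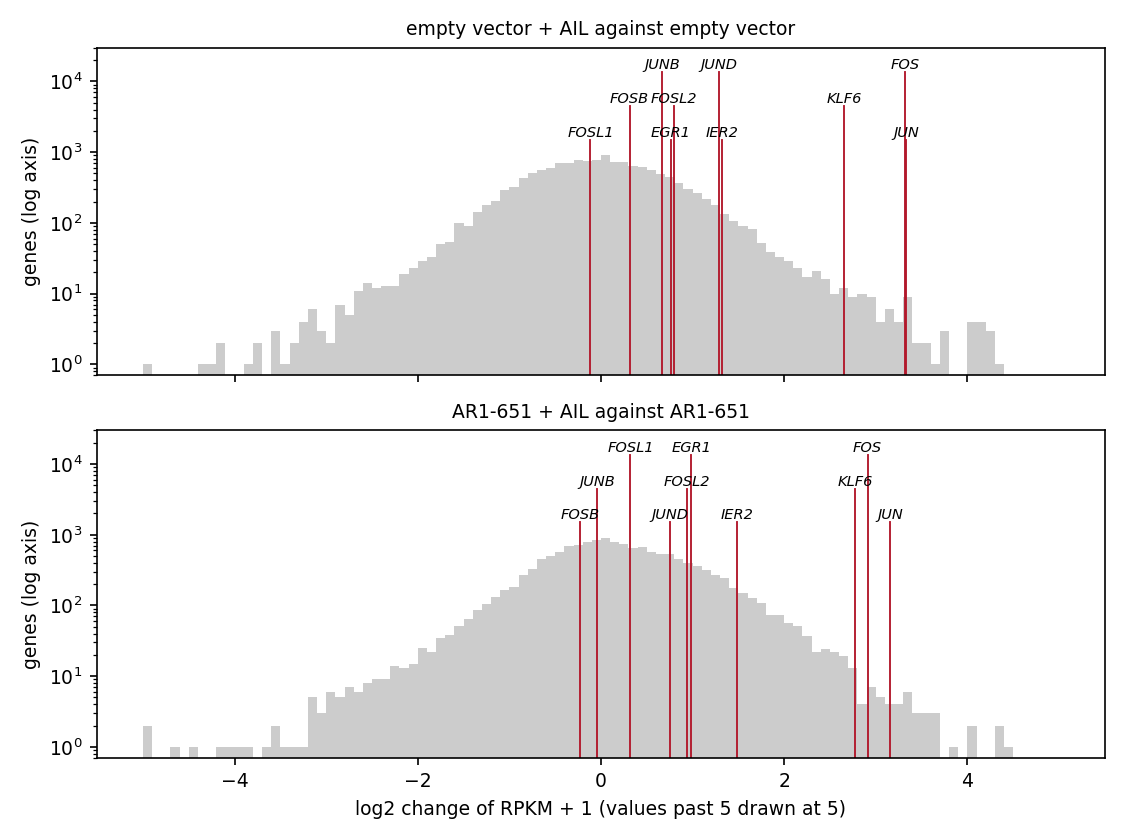
Distribution of the log2 difference of RPKM + 1 with AIL over the 14626 genes, for empty vector above and AR1-651 below, with the number of genes on a log axis and red lines at the 10 genes. The bulk of genes centres near 0, and JUN in both backgrounds and FOS with empty vector were raised at least 8-fold, as were 0.294% of genes with empty vector and 0.232% with AR1-651, while KLF6 and, with AR1-651, FOS lie short of that.

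The AIL difference was compared between the plasmids for each gene, as AR1-651 minus empty vector on the log2 scale. It was -0.54 for JUND and -0.70 for JUNB, and for these genes the counting intervals of the RPKM ratios with AIL did not overlap between the plasmids. It was -0.41 for FOS, -0.17 for JUN, 0.23 for EGR1, 0.14 for FOSL2, 0.16 for IER2 and 0.12 for KLF6, and the intervals of these 6 overlapped. Another scaling of the libraries moves all these values together. AIL differences in AR1-651 were lower at higher GC content across 14005 genes, with a Spearman rho of -0.41 as a description across genes, which are not independent. JUND and JUNB are GC-rich, at 69.7% and 64.9% against a median of 49.3%, and with the trend in length and GC content taken out the AIL differences were 1.23 and 0.88 for JUND and 0.62 and 0.10 for JUNB, with empty vector and AR1-651 in turn. IER2, at 62.9%, is also GC-rich, and its difference of 0.16 had the other sign. FOS, at 52.6%, had -0.41. A part of GC content in these values was not tested.

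In the untreated cells the genes were compared between plasmids, to see which levels went with the AR1-651 plasmid. None of the 10 was raised and 1, FOSL2, was lowered in the library labelled AR1-651, while 4.01% of the 14626 genes were raised and 11.6% were lowered. FOSL2 fell by 1.07 on the log2 scale, with an RPKM ratio of 0.451 (0.398 to 0.513). The value was -1.41 to -0.46 over the alternative settings and did not reach 2-fold with median-ratio scaling or with the trend removed. IER2 was next, with a log2 difference of -0.95 and an RPKM ratio of 0.508 (0.438 to 0.588). EGR1 had a lower RPKM ratio, 0.307 (0.0725 to 1.02), from 12 and 4 reads, with a log2 difference of -0.51 that was -1.37 with a pseudocount of 0.1. JUN differed by 0.09 and JUNB by 0.19, which became -0.27 and -0.16 with equal RPKM sums. JUND differed by -0.28, which became 0.03 with the trend removed, and KLF6 by 0.30. The median over the 10 was -0.20 and over the 14626 genes -0.30, and that median moved to -0.09 with median-ratio scaling and to -0.59 with equal RPKM sums.

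With AIL present, none of the 10 was raised or lowered between the library labelled AR1-651 + AIL and empty vector + AIL, where 1.46% of genes were raised and 3.53% were lowered. KLF6 was the only one of the 10 with the higher value in AR1-651 + AIL, at 0.42. FOSL2 at -0.93, JUND at -0.82, IER2 at -0.78, FOS at -0.53 and JUNB at -0.51 were lower without reaching 2-fold. JUN differed by -0.09, which became 0.28 with the length and GC trend removed. Across 14005 genes the differences in this comparison were lower at higher GC content, with a Spearman rho of -0.60 as a description. With the trend removed, FOSL2 was at -0.56, FOS at -0.44, IER2 at -0.37, JUND at -0.31 and JUNB at -0.065. EGR1 was then at 0.0035 and KLF6 at 0.49. A part of GC content in these values was not tested. The median over the 10 was -0.40 and over the 14626 genes -0.03. This comparison and that of the untreated cells share no library, but each shares libraries with the AIL comparisons.

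The order of the 10 genes within a library changed at its top. Without AIL, JUND was the highest in both libraries. In empty vector IER2 came next at 49.08 RPKM (45 to 53.5), followed by JUN at 35.65 (32.9 to 38.5) and JUNB at 30.57 (27.1 to 34.3), and the intervals of JUN and JUNB overlapped. In AR1-651, JUN at 37.97 (35.3 to 40.8) and JUNB at 35.01 (31.4 to 38.9) again overlapped, and IER2 followed at 24.93 (22.1 to 28). With AIL, JUN was the highest in both libraries, above JUND at 303.73 (292 to 315) in empty vector + AIL and at 171.78 (164 to 180) in AR1-651 + AIL. FOS at 16.24 (13.9 to 18.9) and KLF6 at 16.07 (14.5 to 17.8) overlapped in empty vector + AIL, whereas in AR1-651 + AIL KLF6 at 21.8 (20 to 23.6) was above FOS at 10.95 (9.18 to 13). EGR1, FOSB and FOSL1 were the lowest of the 10 in both libraries with AIL.

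A share within a library does not depend on how the libraries are scaled, and the makeup of the 7 FOS and JUN genes was therefore compared. Their summed RPKM was 213.7, 776.2, 185.8 and 583.3. JUN made up 16.7%, 47.3%, 20.4% and 59.3% of these sums, and JUND made up 58%, 39.1%, 54.8% and 29.5%. JUN thus held the larger share with AIL and JUND without it, for both plasmids. JUNB took 14.3% and 18.8% without AIL and 6.32% and 5.83% with it. The 4 FOS genes together took 11%, 7.25%, 5.91% and 5.39%, most of it FOSL2, and FOS itself went from 0.342% and 0.318% to 2.09% and 1.88% with AIL. JUN genes held at least 89% of the sum in each library. By reads, which are not divided by length, the FOS genes took 26.9%, 13.3%, 15.3% and 9.01%. Shares of mRNA do not give the share of protein dimers.

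**Figure D4:**
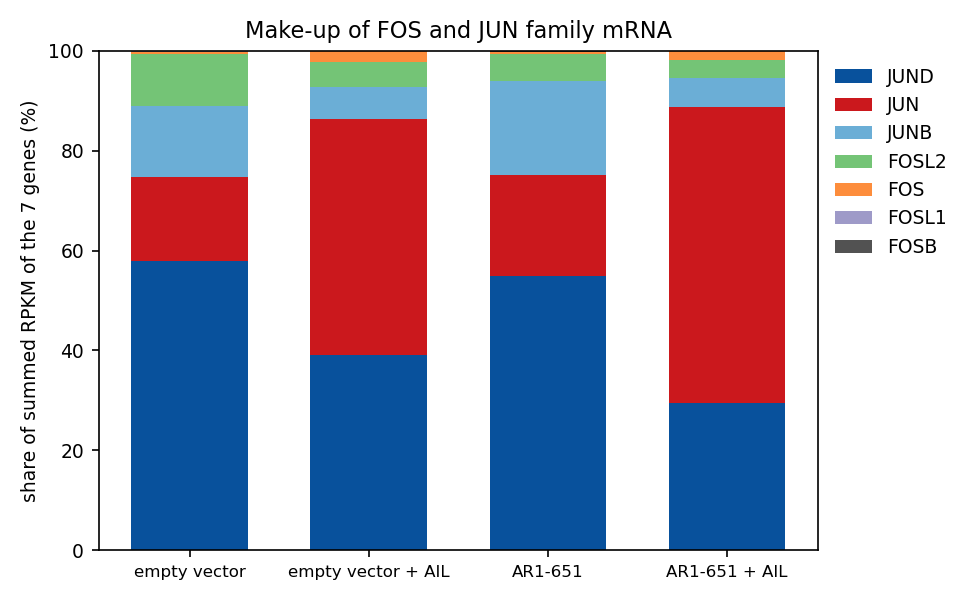
Share of each FOS and JUN gene in the summed RPKM of the 7, in percent, as 1 stacked bar per library. JUND fills the largest part without AIL and JUN the largest part with AIL, and FOSB and FOSL1 are too small to be seen.

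The other genes of the system were read from lists of their own, whose counts stand beside the shares of all 14626 genes with AIL, 9.53% and 14.9% raised and 9.03% and 5.74% lowered. Of 31 further immediate early genes, 16 were raised and 1 was lowered with AIL in each background, and 14 were raised in both, against 5.67% of all genes, with 25 of the 31 above the filter. ATF3, a stress-induced AP-1 partner, measured 7.08, 144.9, 13.79 and 159.5 RPKM, with log2 differences with AIL of 4.17 and 3.44. BTG2, an antiproliferative gene, differed by 3.04 and 3.40, KLF10 by 2.87 and 3.35 and IER5 by 2.39 and 2.02. The gene lowered was NR4A1 in both cases, an orphan nuclear receptor that fell by 1.13 and by 1.89 and is named here after its values were seen. ZFP36L2, which promotes decay of AU-rich mRNAs, fell by 2.25 in the library labelled AR1-651 against empty vector, both without AIL.

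**Figure D5:**
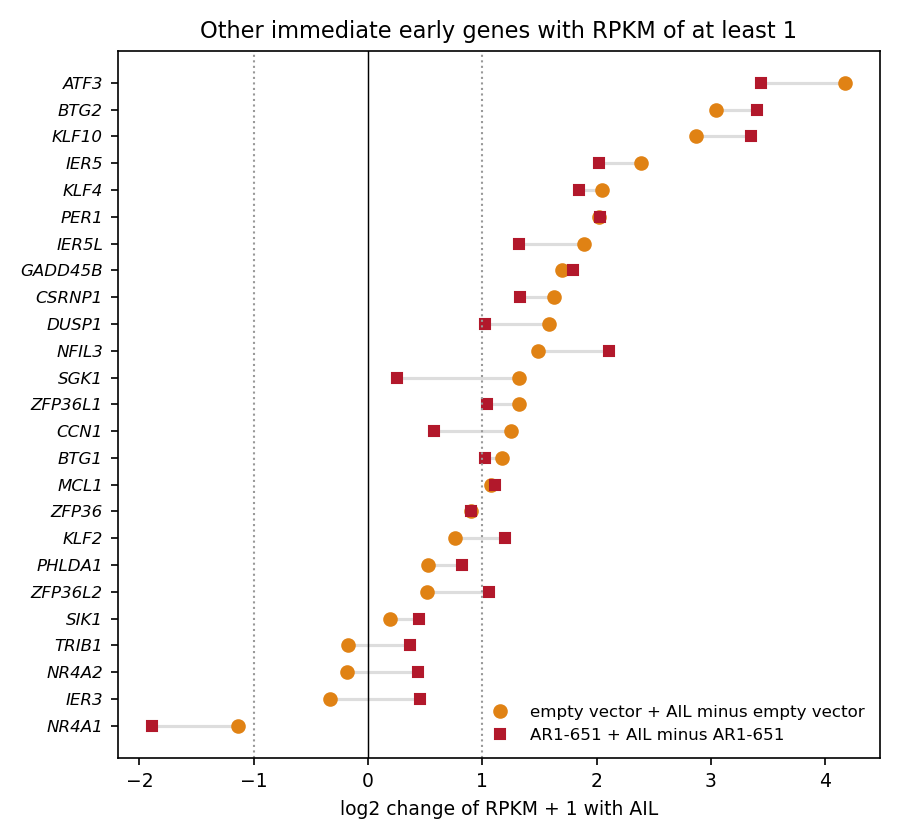
Log2 difference of RPKM + 1 with AIL for the 25 further immediate early genes above the filter, with a circle for empty vector, a square for AR1-651 and dotted lines at 2-fold. ATF3 and BTG2 exceed 3 in both backgrounds, and NR4A1 is the only gene lowered in either.

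Among 14 dimer partners of AP-1, 4 were raised with AIL in empty vector and 3 in AR1-651, and none was lowered. Besides ATF3 these included ATF4, the effector of the integrated stress response, at 2.03 and 1.42, and MAFF, which passed 2-fold with empty vector at 1.11 and measured 0.68 with AR1-651. The difference of MAFF between backgrounds was not tested. Of 12 SRF, ternary complex and CREB factors, 2 were raised and 1 was lowered in empty vector, and 5 were raised in AR1-651. SRF, which binds the CArG box, measured 12.31, 36.45, 8.0 and 17.93 RPKM, with AIL differences of 1.49 and 1.07, and ATF1 differed by 1.09 and 2.07.

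Mitogen-activated protein (MAP) kinases phosphorylate JUN and the ternary complex factors. Of 22 genes for these kinases, the kinases that activate them and the ribosomal S6 kinases they act on, none was raised in either background and 1 and 2 were lowered, a number near the share of all genes. These were RPS6KA2, a ribosomal S6 kinase, which fell by 1.72 with empty vector and fell by 1.83 with AR1-651, and in AR1-651 also MAPK11, a p38 kinase, at -1.24 against -0.41. Of 8 regulators of AP-1 and EGR proteins, 1 and 2 were raised. FBXW7, part of a ubiquitin ligase for JUN, measured 3.67, 18.31, 2.13 and 29.63 RPKM, or 2.05 and 3.29 with AIL. ITCH, another ligase for JUN proteins, was the other, at 0.52 and 1.28.

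Of 18 genes known as AP-1 or EGR1 targets in various cells, 1 was raised in each background and none was lowered. It was CXCL8, the chemokine interleukin-8, at 0.92, 10.91, 1.8 and 27.53 RPKM, with AIL differences of 2.63 and 3.35. Of the 18, 10 were above the filter. A count of 1 among these 10 is near the 9.53% of genes raised with empty vector and below the 14.9% with AR1-651. The median difference of the 18 was -0.05 and 0.14, and that of all 19801 genes was 0 and 0.06. Of 12 factors of AU-rich mRNA decay, 1 was raised and 1 was lowered with AIL in empty vector, and 3 were raised in AR1-651. Without AIL, 5 were lowered in the library labelled AR1-651 against empty vector, where 11.6% of all genes were lowered and the median of all genes was -0.30. Differences in that comparison were lower at greater exon length across 14005 genes, with a Spearman rho of -0.39 as a description. Values with this trend removed are not given for the decay factors. ZFP36, ZFP36L1 and ZFP36L2 are also on the list of further immediate early genes.

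FOS had the widest range of the 10 over the 4 libraries, 3.44 on the log2 scale. The genes with the nearest profile to it, by the Euclidean distance of centred log2(RPKM + 1) over the 4 libraries, were DHRS2 at 0.29, RNF19B at 0.39, BTG2 at 0.41, MIR3185 at 0.41 and PRELID3A at 0.47. DHRS2, a short-chain dehydrogenase, measured 1.98, 22.16, 1.55 and 15.59 RPKM, and RNF19B, a ubiquitin ligase, measured 8.19, 66.88, 5.9 and 43.7. PRELID3A measured 1.37, 15.02, 1.15 and 11.77 RPKM. MIR3185 was listed at 0 in both libraries without AIL, at 6.37 with empty vector + AIL and at 5.38 with AR1-651 + AIL. Its reads are not given here, and in a short microRNA gene very few reads can give such RPKM values. Each of these genes was higher in the libraries with AIL than in those without it, and highest in empty vector + AIL. Since they were picked for their closeness to the profile of FOS, this shared shape follows from the choice. A likeness over 4 libraries describes these libraries only.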

How the data were processed

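Poly(A)-selected or ribosomal RNA-depleted RNA (the labels name both an oligo(dT) step and a depletion kit) was sequenced from 4 libraries. The authors deposited 1 RPKM value per Entrez gene, with 2 decimals. The submitters' processing notes name BWA 0.7.10-r789 and hg19. The libraries were made with a stranded kit and the study mentions RefSeq identifiers, but the counting tool, the annotation release and the strand setting used in counting are not given in the sources used here. The series' design text calls the profiles retinal, whereas all sample labels name LNCaP cells.

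Gene numbers were matched to RefSeq symbols for 19703 of 19801 genes. Differences were taken on log2(RPKM + 1) for genes that reached an RPKM of 1 in any library and called at 2-fold. The depth of each library was fitted from low RPKM values, where whole reads give steps: 54.9% to 58.1% of 2214 to 2491 low genes lay within 0.15 of a whole read, against 30% for evenly spread values. Reads were then estimated as RPKM times exon length times depth, with exon lengths, GC content and UTRs from GENCODE release 29. Intervals are exact Poisson for a level and exact binomial for a ratio, at 95%, and depend on that fit. Promoters are those of RefSeq on GRCh38.p14, and the motifs were chosen after the sequences were seen.

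The 10 genes and all lists were chosen with earlier results of these data known. Named from each list were up to 5 genes past 2-fold in at least 1 of the 4 comparisons, by their largest difference and apart from items not reported here, with KLK3 and the 5 genes nearest in profile to the member of widest range. The alternatives were a pseudocount of 0.1, median-ratio scaling, equal RPKM sums, no filter or a minimum RPKM of 5, a 1.5-fold threshold, polynomials that take out the dependence on length and GC content (degree 3), and shares by reads. The depth fit, and the 2-fold calls after median-ratio scaling, were tested on simulated reads. The simulation used the same exon lengths as the fit, so it cannot show an error from lengths that differ from those of the authors. Python 3.11.15, NumPy 2.4.6, pandas 2.3.3, SciPy 1.17.1 and matplotlib 3.10.9 were used.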

Additional observations from a re-analysis of the deposited data

Results flagged for a closer look

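The AIL difference had opposite signs in the empty vector and AR1-651 libraries for 10 of the named genes. The difference between backgrounds, AR1-651 minus empty vector on the log2(RPKM + 1) scale, was not tested for any of them. Among the AP-1 genes it was -0.70 for JUNB, where the AR1-651 side was itself only -0.04, and -0.54 for FOSB and 0.44 for FOSL1, which rest on at most 8 reads per library. It was 2.16 for XRN1, 1.72 for MRTFB, -1.18 for ATF7, 0.98 for GCLC, 0.54 for TRIB1 and 0.069 for CRTC1. Both sides of CRTC1 were small, at -0.0013 with empty vector and 0.068 with AR1-651. For KLK3 the difference between backgrounds was -1.39, from 286.61 to 302.56 RPKM with empty vector and from 1442.16 to 581.52 RPKM with AR1-651. The empty vector side of KLK3 was itself only 0.08. The share of all genes with opposite signs was not computed. Of the 14626 genes, 48.3% were higher with AIL in empty vector and 56.2% in AR1-651.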

How the results depend on the processing

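No paired analysis was possible because each condition had 1 library, and for the same reason no library could be left out. The calls with AIL kept their direction under every alternative, for JUN, FOS, KLF6 and IER2 in both backgrounds. The counts of calls that follow are of the 8 members above the filter and leave out FOSB and FOSL1. With a 1.5-fold threshold the number called was 8 in place of 5 with AIL in empty vector and 7 in place of 4 with AIL in AR1-651. Between the untreated libraries it was 2 in place of 1, and between the libraries with AIL it was 3 in place of 0. With AIL it was also 6 in empty vector with a pseudocount of 0.1 or with the length and GC trend removed, and in AR1-651 it was 5 under each of these and 6 with equal RPKM sums, where EGR1 and FOSL2 gained calls. Between the untreated libraries the number was also 2 with a pseudocount of 0.1 and with equal RPKM sums, and 0 with median-ratio scaling and with the length and GC trend removed, where FOSL2 lost its call. Between the libraries with AIL it was 1 with equal RPKM sums. The shares of all genes called under these alternatives were not computed, and a looser threshold calls more of all genes too. These counts therefore show only how the calls of the 8 members above the filter move. The median of the AIL difference in AR1-651 minus that in empty vector, over the 8 members above the filter, was -0.03, and moved to -0.22 with median-ratio scaling, to -0.17 with the trend removed and to 0.19 with equal RPKM sums, which turned its sign. The share of JUN among the FOS and JUN genes rose by 30.61 percentage points with AIL in empty vector by RPKM and by 35.27 by reads. Signs also turned for JUN (-0.27), JUNB (-0.16) and JUND (0.03) between the untreated libraries, for JUNB with AIL in AR1-651 (0.15 and 0.10) and for JUN (0.28) and EGR1 (0.0035) between the libraries with AIL. Depth limits FOSB, FOSL1 and EGR1 most.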

Other observations

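TBP, a basal transcription factor often used as a reference gene, stood at 9.25 RPKM (empty vector) and 8.03 RPKM (AR1-651) without AIL and at 26.65 and 28.7 RPKM with it. Its log2 differences with AIL were 1.43 and 1.72, so that a ratio of any of the 10 genes to TBP would be smaller with AIL than its RPKM ratio.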
